A study of Mus musculus with 15 samples.

Results

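The miR-29 family consists in the mouse of miR-29a-3p, miR-29b-3p and miR-29c-3p, 3 of the 1122 mouse miRNAs on the arrays of this study. Its members were taken by name from the probe annotation of the scanner tables, and all 3 passed the filter on dim signal. The family was chosen by its higher level in morphogen-treated cells than in control cells in earlier results from these arrays, so the treated against control values below are descriptions without a test. Comparisons between days were tested, but they share the treated and control arrays with that choice and are not independent of it.

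The cells were mouse epiblast stem cells, pluripotent cells of the post-implantation embryo type, derived from animals with a GFP reporter of Pitx3, a transcription factor gene of midbrain dopaminergic neurons. All 5 groups share that origin and were differentiated in culture. Treated cells received the morphogens SHH and FGF8 from day 5 and were collected at day 9 and day 14. Control cells were kept without both morphogens and collected on the same days, and a further group was collected at day 5 before any morphogen was added. Each group had 3 labelled replicates. Nothing in the labels says whether they came from separate cultures, so p-values measure only the spread between these samples.

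miRNAs of the miR-29 family bind target mRNAs through the seed near their 5′ end and lower the output of those mRNAs. Known targets include collagens, elastin and other genes of the extracellular matrix, and the DNA methyltransferases that set methylation anew. In mouse neurons the family is known to rise with maturation and to hold back pro-apoptotic genes. In human cells the 3′ end of miR-29b is known to direct it to the nucleus.

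The mature sequences show how closely the probes must discriminate. They are given 5′ to 3′ from RefSeq (build GRCm38.p6), with the seed, bases 2 to 8, in capitals:
mmu-miR-29a-3p: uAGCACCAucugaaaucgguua
mmu-miR-29b-3p: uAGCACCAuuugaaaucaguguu
mmu-miR-29c-3p: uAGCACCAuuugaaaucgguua
All 3 share 1 seed, and among the 1679 mature miRNA names of the RefSeq table no other name has it. Counted from 1 at the 5′ end, miR-29c-3p differs from miR-29a-3p by C10U alone. miR-29b-3p differs from miR-29a-3p by C10U, G18A, U21G and A22U, and is 1 base longer. Probe sequences were not used here, and cross-hybridization between members was not tested.

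The 4 hairpins lie in 2 pairs. Mir29a (chr6:31062660-31062747) and Mir29b-1 (chr6:31063023-31063093) are on the minus strand of chromosome 6 with 275 bases between them. Mir29b-2 (chr1:195037040-195037120) and Mir29c (chr1:195037547-195037634) are on the plus strand of chromosome 1 with 426 bases between them. Both miR-29b hairpins give the same mature miR-29b-3p (chr6:31063025-31063047 and chr1:195037091-195037113), so its signal is the sum of both loci. The mature miR-29a-3p lies at chr6:31062673-31062694 and miR-29c-3p at chr1:195037600-195037621.

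Signals were background-subtracted intensities divided by each array's 75th percentile over 353 probes, and are given here as a percentage of that percentile (scaled signal) or as its log2. The 75th percentile ran from 149 to 337 intensity units over the 15 arrays, 238 to 333 miRNAs were above background per array, and replicates correlated at 0.980 to 0.998 over the 306 tested miRNAs. Above background means that at least 50% of a probe's spots carried the scanner software's flag. Scaled signals below 5.19% (-4.27 on the log2 scale) were set to that floor and have no order. For miR-29a-3p at day 5 and miR-29b-3p in control cells this made the SD 0. The SE and p-values of these members pool that SD with the other groups, so they rest partly on values set equal. All day 5 and treated day 9 arrays lay on slide 1 together with replicates 1 and 2 of treated day 14. Replicate 3 of treated day 14 lay on slide 2 with all 6 control arrays. No slide holds both treated and control cells of day 9, so at that day slide and treatment cannot be told apart within a slide.

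miR-29a-3p went up steeply in treated cells and slowly in control cells. At day 5 it was below background on all 3 arrays, with unscaled signals of 7.25, 13.4 and 5.53 intensity units. In treated cells its scaled signal was 34.4%, 33.7% and 34.0% at day 9 and 32.6%, 29.9% and 27.3% at day 14. In control cells it was 6.11%, 6.66% and 6.94% at day 9, above background on 2 of 3 arrays, and 10.6%, 13.5% and 12.8% at day 14. The treated arrays of both days thus lie above every control array and every day 5 array.

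The day 9 level in treated cells exceeded that of day 5 at least 5.12-fold (limma, adjusted p = 1.5e-11), a comparison within slide 1. At day 14 it was at least 4.49-fold above day 5 (adjusted p = 1.1e-11). miR-29a-3p passed the filter on dim signal through treated cells and control cells of day 14, not through day 5. Its p-values against day 5 are therefore not independent of that filter. The change between day 9 and day 14 in treated cells was -0.19 on the log2 scale (95% interval -0.38 to 0.01, adjusted p = 0.084) and did not pass the test. That result depends on the setting: the decrease passed without treated day 14 replicate 1 (-0.25, adjusted p = 0.040), with quantile normalization (-0.45, adjusted p = 4.3e-05), with median scaling (-0.40, adjusted p = 0.0016), with the mean of both probes (-0.33, adjusted p = 0.0024) and with a floor 4 times higher. In control cells miR-29a-3p was called higher at day 9 than at day 5 (adjusted p = 0.0054), but no fold is given, since day 5 was at the floor on all arrays and a bound would be under 1. These groups also lie on different slides. The control level rose by 0.90 (SE 0.09, adjusted p = 1.1e-06) between day 9 and day 14, within slide 2, and was at least 1.84-fold higher at day 14 than at day 5 (adjusted p = 1.9e-08). After that rise the control arrays of day 14 still lay below every treated array.

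**Figure D1:**
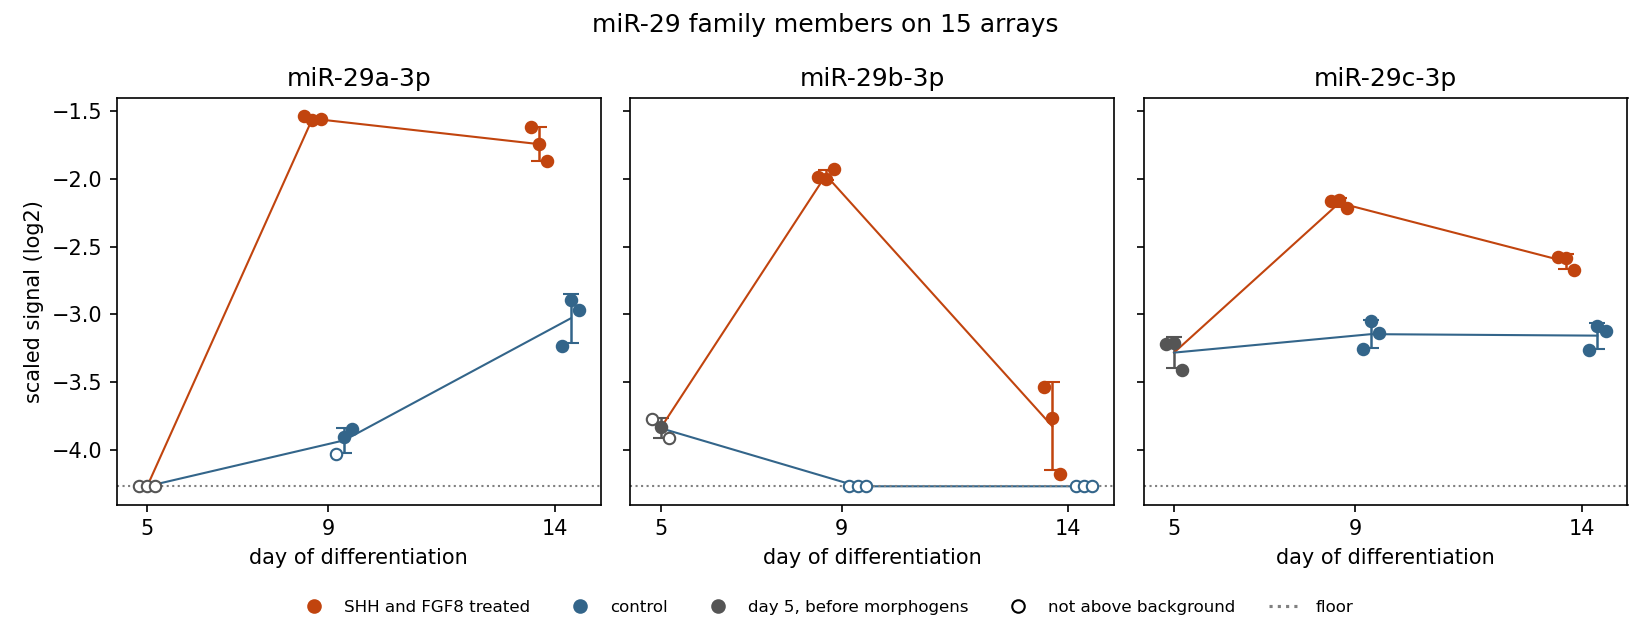
Scaled signal (log2) of the 3 members on each of the 15 arrays against the day of differentiation. Points are arrays (open where not above background), bars are the group mean ± SD (n = 3), lines join the means, and the dotted line is the floor at -4.27; miR-29b-3p stands out by its return to -3.83 in treated cells at day 14, against -1.97 at day 9.

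miR-29b-3p had a transient peak in treated cells. At day 5 its scaled signal was 7.33%, 7.01% and 6.63%, above background on 1 of 3 arrays. In treated cells it was 25.2%, 25.0% and 26.2% at day 9, and 8.61%, 7.37% and 5.52% at day 14, above background on all 6 arrays. In control cells it was below background on all 6 arrays, with unscaled signals of 9.45 to 13.1 intensity units. The treated day 9 arrays stand apart from the other 12, and the treated day 14 arrays overlap those of day 5.

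miR-29b-3p rose by 1.87 on the log2 scale (SE 0.12) in treated cells at day 9 relative to day 5 (limma, adjusted p = 8.2e-09). It passed the filter on dim signal through the treated groups alone, where every array was above background. Its p-values against day 5 are therefore not independent of that filter. Between day 9 and day 14 in treated cells miR-29b-3p fell by 1.85 (SE 0.12, adjusted p = 1.4e-08). On the arrays of slide 1 alone, which hold treated day 14 replicates 1 and 2, the change was -1.68. At day 14 treated cells differed from day 5 by 0.014 (95% interval -0.24 to 0.27, adjusted p = 0.91). Without treated day 14 replicate 3, the array on slide 2, that difference was 0.19 (adjusted p = 0.035).

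In control cells miR-29b-3p was called lower than at day 5 both at day 9 (adjusted p = 0.0064) and at day 14 (adjusted p = 0.0047). No fold is given, since the controls were at the floor and day 5 was mostly not above background. With slide as a fixed block both differences turned to 0.10 (adjusted p = 0.56 and 0.55), so their direction is unsettled. Day 5 itself was above background on 1 array.

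miR-29c-3p was above background on all 15 arrays. It rose in treated cells at day 9 and lost part of that rise by day 14. Its scaled signal at day 5 was 10.7%, 10.8% and 9.38%. Treated cells had 22.4%, 22.4% and 21.5% at day 9 and 16.8%, 16.7% and 15.7% at day 14. Control cells had 10.5%, 12.1% and 11.4% at day 9 and 10.4%, 11.8% and 11.5% at day 14. The 6 treated arrays lie above the other 9, while control and day 5 arrays overlap.

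Relative to day 5, miR-29c-3p rose by 1.11 on the log2 scale (SE 0.08) in treated cells at day 9 (limma, adjusted p = 2.8e-08). Between day 9 and day 14 in treated cells it fell by 0.43 (SE 0.08, adjusted p = 2.2e-04), which left it 0.67 above day 5 (SE 0.08, adjusted p = 3.0e-06). Control cells differed from day 5 by 0.14 at day 9 (95% interval -0.03 to 0.30, adjusted p = 0.16) and by 0.13 at day 14 (95% interval -0.04 to 0.29, adjusted p = 0.16). Under quantile normalization these were 0.38 (adjusted p = 0.0013) and 0.31 (adjusted p = 0.0038). Between day 14 and day 9 control cells differed by -0.011 (95% interval -0.18 to 0.16, adjusted p = 0.97).

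Counted over the family, 3 of 3 members were called in treated cells at day 9 against day 5, beside 58.8% of all tested miRNAs. The other comparisons had 2 of 3 for treated day 14 against treated day 9 (66.3% of all), 2 of 3 for treated day 14 against day 5 (72.2%), and 2 of 3 for control day 9 against day 5 (58.8%). For control day 14 against control day 9 it was 1 of 3 (54.2%), and for control day 14 against day 5 it was 2 of 3 (68.6%). Being called is common in this series, so these shares are no result about the family. With the 75th percentile taken over all probes, 77 of 157 calls for treated day 9 against day 5 were increases, against 115 of 180 here, and for control day 9 against day 5 it was 107 of 156, against 73 of 180 here. The median difference of all 306 miRNAs for treated day 9 against day 5 was 0.10 on the log2 scale.

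**Figure D2:**
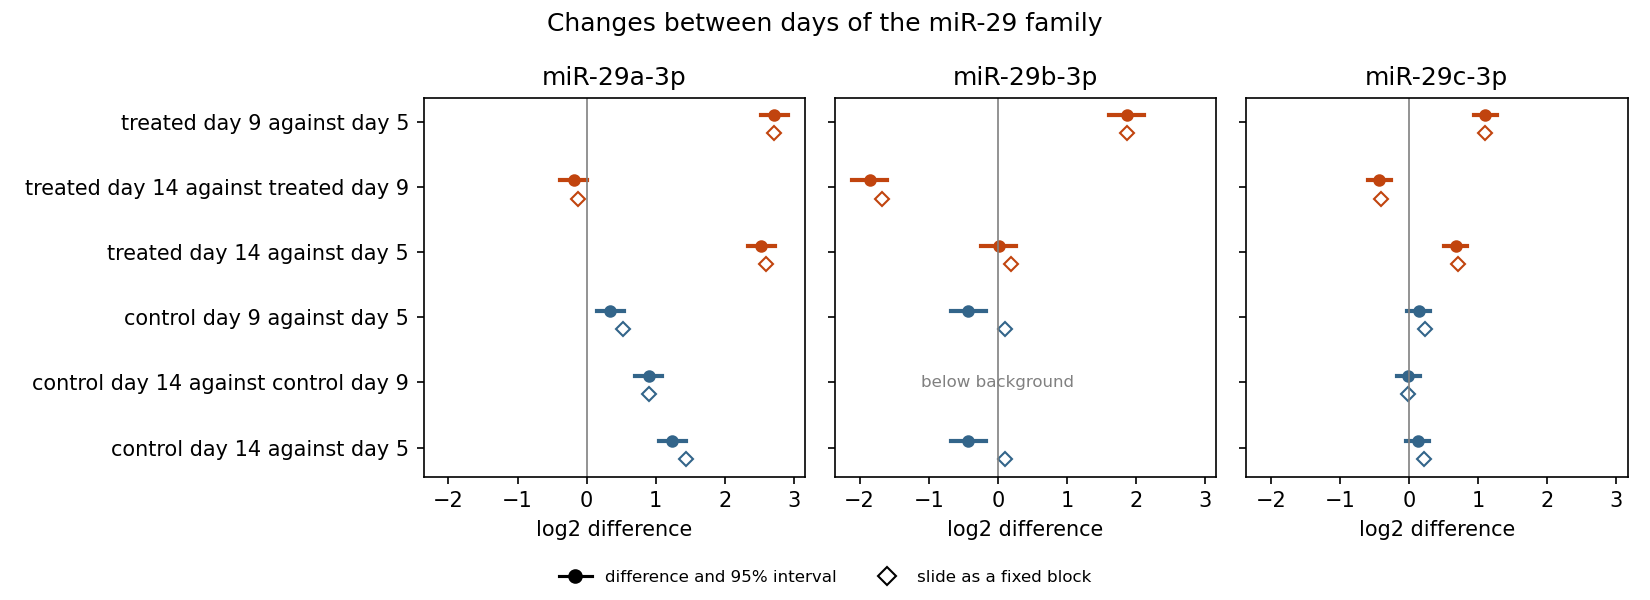
Log2 differences of the 3 members in the 6 comparisons between days. Filled points and bars are limma's difference and 95% interval, and open diamonds are the difference with slide as a fixed block. Treated day 9 against day 5 gave 1.87 for miR-29b-3p and 1.11 for miR-29c-3p. Values of miR-29a-3p against day 5, and of miR-29b-3p in control cells, are set against the floor and their size depends on it; the 2 control differences of miR-29b-3p against day 5 change sign with the block.

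Set against control cells of the same day, all 3 members were higher in treated cells, without overlap between arrays, at both days. For miR-29b-3p at day 14 this rests on the floor, with treated replicate 3 at 5.52% and controls set to 5.19%. Higher signal in treated cells without overlap held for 51.3% of tested miRNAs at day 9 and 41.2% at day 14. At day 9 the difference was 2.37 on the log2 scale (SE 0.09) for miR-29a-3p, at least 4.63-fold for miR-29b-3p and 0.97 (SE 0.08) for miR-29c-3p. At day 14 it was 1.29 (SE 0.09) for miR-29a-3p, at least 1.31-fold for miR-29b-3p and 0.55 (SE 0.08) for miR-29c-3p. The day 14 difference was thus the smaller for 3 of 3 members, a count by sign. Over all 306 tested miRNAs the median of the day 14 minus the day 9 difference was -0.07. A lower day 14 value was therefore common, but the share of miRNAs with one was not computed. By this value miR-29a-3p, miR-29b-3p and miR-29c-3p ranked 9, 3 and 57 from the lowest of 306, a description only. Of all tested miRNAs, 32.7% passed the threshold for a difference that changed between the days, and 16% for one that was lower at day 14. These shares count calls and are not comparable with the 3 of 3.

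The median of all 306 miRNAs also favoured treated cells, by 0.25 at day 9 and 0.22 at day 14. With 3 other scalings that median lay between -0.25 and 0.01 at day 9, and miR-29a-3p, miR-29b-3p and miR-29c-3p stayed higher in treated cells. With slide as a fixed block, a fit that only treated day 14 links across slides, the day 9 differences were 2.18 for miR-29a-3p and 0.88 for miR-29c-3p, and 1.77 for miR-29b-3p against controls held at the floor. At day 14, treated replicate 3 shares slide 2 with the controls, and on that slide it was above them by 1.16 for miR-29a-3p, 0.091 for miR-29b-3p and 0.49 for miR-29c-3p. For miR-29b-3p the controls were at the floor, so its value there is the height of 1 treated array over the floor.

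The measured differences between members varied over the days, which the test used for them could not call. Only the change of a within-array difference is read here, since levels of different probes are not comparable. Between day 9 and day 14 in treated cells, the log2 difference of miR-29a-3p minus miR-29b-3p was 2.08 ± 0.20 at day 14 and 0.42 ± 0.04 at day 9 (SD, n = 3 each), a change of 1.67. For miR-29b-3p minus miR-29c-3p it was -1.22 ± 0.27 at day 14 and 0.20 ± 0.07 at day 9, a change of -1.42. Neighbours on a chromosome thus shifted against each other in these signals, since the miR-29b-3p signal went down by more than that of miR-29a-3p, its neighbour on chromosome 6, and that of miR-29c-3p, its neighbour on chromosome 1. Both changes kept their sign in the alternatives run but were smaller in some, 0.67 and -0.53 with normexp background, 0.68 and -0.53 with the mean of both probes, and 0.11 and -0.20 with a floor 4 times higher.

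For miR-29a-3p minus miR-29c-3p, which differ in sequence at 1 base, the difference was 0.87 ± 0.08 at day 14 and 0.62 ± 0.03 at day 9, a change of 0.24. In these 3 cases the arrays of both days did not overlap and all were above background. How often other pairs of miRNAs show this was not computed. Between these days 66.3% of all tested miRNAs were called, so the lack of overlap is no result about the family. The exact two-sided permutation test gave p = 0.1 for each, the smallest that 3 against 3 arrays allow, or 0.1125 after Benjamini-Hochberg adjustment over the 18 such tests. A p of 0.05 was therefore out of reach.

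**Figure D3:**
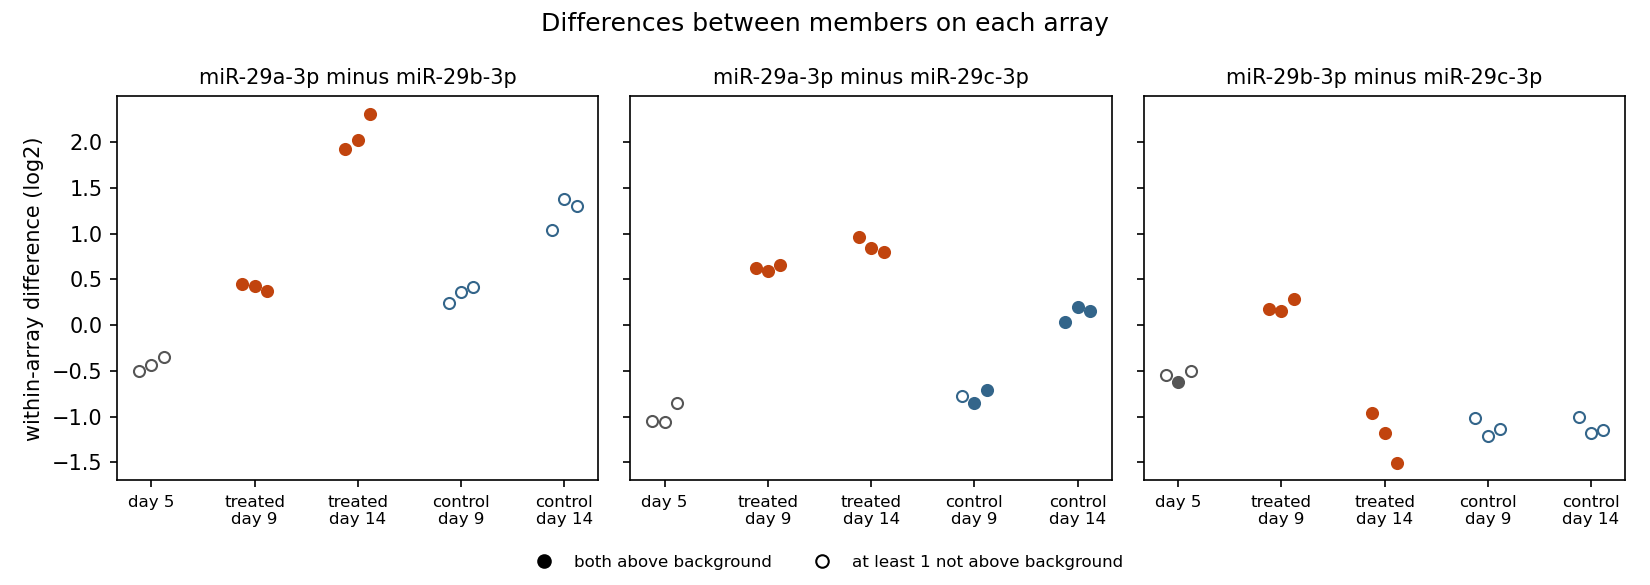
Within-array log2 difference between members of each pair, by group, 1 point per array. Filled points have both members above background. The zero of the axis has no meaning across probes, and only shifts between groups are read; in treated cells miR-29a-3p minus miR-29b-3p averaged 2.08 at day 14 against 0.42 at day 9.

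Each member had 2 probes of 20 spots each, and the brighter was used. On the treated day 9 arrays the coefficient of variation between its spots was 6.67% to 10.5% for miR-29a-3p, 5.83% to 7.28% for miR-29b-3p and 9.43% to 10.3% for miR-29c-3p. The dimmer miR-29a-3p probe was below background at day 5 and in control day 9 cells. Its log2 means were -2.13 in treated cells at day 9, -2.61 in treated cells at day 14 and -3.93 in control cells at day 14, in the order of the brighter probe. Day 5 and control day 9, both at the floor, have no order on it. On the dimmer probe, treated day 14 lay 0.48 below treated day 9, against 0.19 on the brighter probe.

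The dimmer miR-29c-3p probe gave a treated day 9 against day 5 difference of 1.03, beside 1.11 on the brighter probe. The dimmer miR-29b-3p probe was above background on 1 array alone, a treated day 9 array. Its mean unscaled signal was 14.2 intensity units in treated day 9 cells, and between 1.00 and 4.03 in the other groups. As 14 of its 15 values were not above background, it is no second measurement of the peak at day 9.

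**Figure D4:**
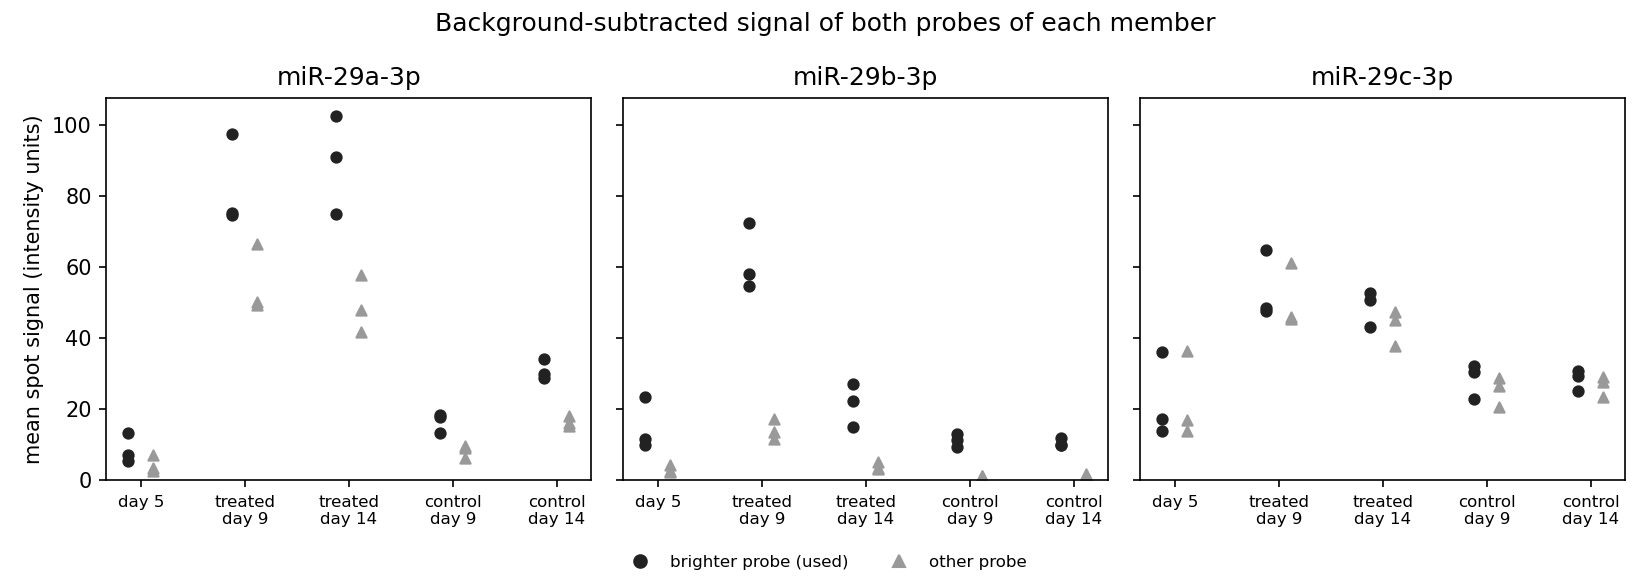
Mean background-subtracted spot signal (intensity units, not scaled between arrays) of both probes of each member, 1 point per array. In treated day 9 cells the miR-29b-3p probe used averaged 61.8 intensity units and the other, above background on 1 array, 14.2.

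The scanner software has its own call per miRNA, which was looser than the rule used here. It detected miR-29a-3p on 13 of 15 arrays against 11 above background, miR-29b-3p on 15 against 7, and miR-29c-3p on 15 against 15. The other arms of the 4 hairpins, miR-29a-5p, miR-29b-1-5p, miR-29b-2-5p and miR-29c-5p, were above background on 0 of 15 arrays and detected by the software on 0. Which miR-29b hairpin gave the peak cannot be read from these probes.

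Across the 15 arrays, the log2 scaled signals of miR-29a-3p and miR-29c-3p correlated at 0.910, those of miR-29b-3p and miR-29c-3p at 0.851 and those of miR-29a-3p and miR-29b-3p at 0.640 (Pearson's r, arrays of 5 groups, a description that shares array and group). The tested miRNAs outside the family most like miR-29a-3p over these arrays, of 303 compared, were miR-24-3p (0.987), miR-27b-3p (0.977), miR-23a-3p (0.944), miR-30b-5p (0.938) and miR-322-5p (0.931). miR-23a, miR-27a and miR-24 are known to come from a shared transcript, and miR-23b, miR-27b and another miR-24 copy from another. miR-24-3p averaged -2.30 ± 0.10 on the log2 scale at day 5, -0.76 ± 0.01 and -0.91 ± 0.05 in treated cells at day 9 and day 14, and -2.10 ± 0.04 and -1.81 ± 0.14 in control cells on those days (SD, n = 3 each). Its treated arrays, like those of miR-29a-3p, lie highest, and its control level is higher at day 14 than at day 9.

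Most like miR-29c-3p were miR-21-5p (0.961), miR-375-3p (0.961), miR-23a-3p (0.952), miR-676-3p (0.951) and miR-24-3p (0.948). Of these, miR-375-3p and miR-676-3p were above background on 6 arrays each. miR-375-3p, a miRNA abundant in pancreatic islets, averaged -0.53 ± 0.08 in treated cells at day 9 and -1.24 ± 0.14 at day 14 (SD, n = 3 each), and was at the floor in control and day 5 cells. miR-29b-3p, above background on 7 arrays, was not ranked. These values describe shared order of groups and nothing more.

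**Figure D5:**
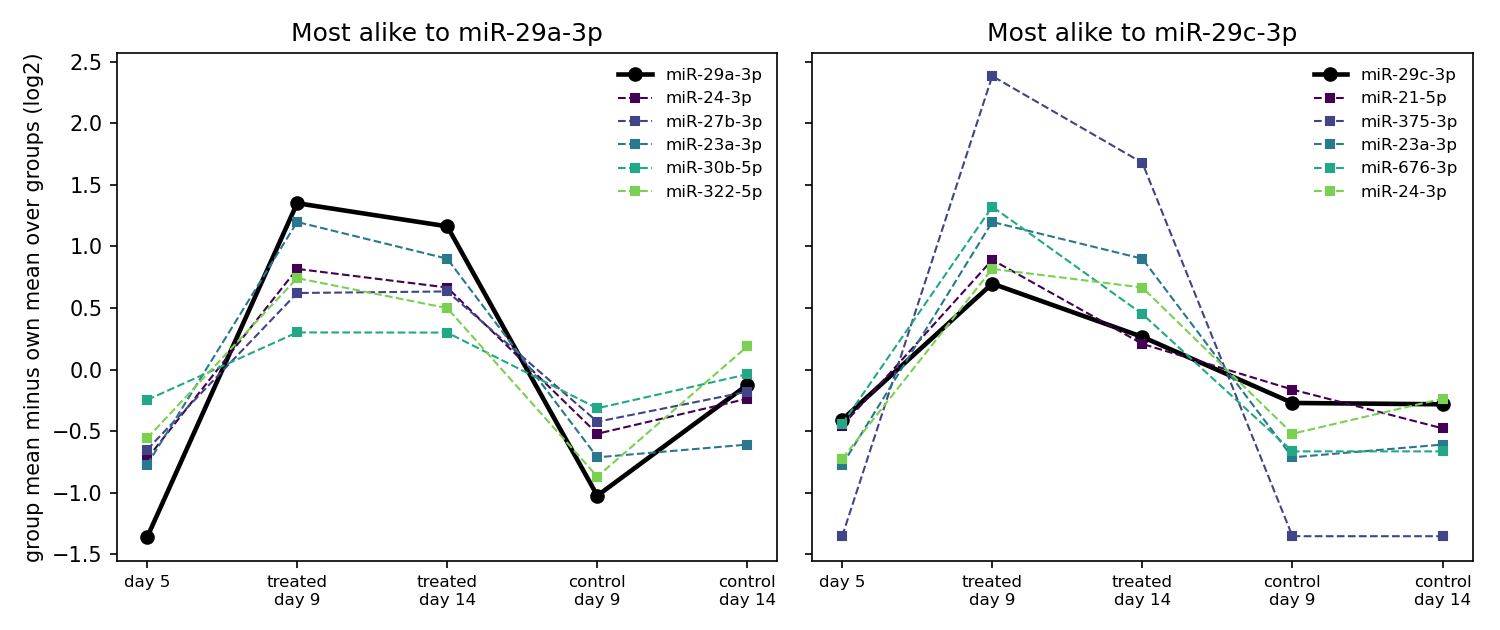
Group means of log2 scaled signal, each miRNA centred on its own mean over the 5 groups, for miR-29a-3p (left) and miR-29c-3p (right) with the 5 miRNAs of highest Pearson correlation. Most of the miRNAs plotted have their highest group in treated day 9 cells, and miR-24-3p and miR-23a-3p are in both panels.

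Other miRNAs linked in the literature to extracellular matrix and fibrosis were read beside the family, 14 on the array and 10 tested. The tested ones include miR-30a-5p, miR-30b-5p, miR-30c-5p, miR-30d-5p and miR-30e-5p, all of the miR-30 family. The counts below are therefore not counts of 10 unrelated miRNAs. The list was drawn up with earlier results of these arrays known. At day 5 let-7d-5p and miR-199a-3p were at the floor, so neither could fall in comparisons with day 5. miR-199a-3p passed the filter on dim signal through treated cells alone. In treated cells at day 9 against day 5, 10 of 10 rose and 0 fell, with a median of 0.62, where 37.6% of all tested miRNAs rose and 21.2% fell. With 3 other scalings 7 to 10 of them rose, with normexp background 5, and 0 fell in each. Among them miR-21-5p, known as pro-fibrotic, rose by 1.35 (SE 0.12, adjusted p = 2.9e-07, limma), and miR-26a-5p rose by 0.69 (SE 0.07, adjusted p = 9.9e-07). Between day 9 and day 14 in treated cells 3 of 10 rose and 1 fell, against 2 and 3 with median scaling and 1 and 1 with normexp background. The 1 that fell was miR-21-5p, by 0.68 (SE 0.12, adjusted p = 1.8e-04), and let-7d-5p, of the let-7 family that rises in differentiation, rose by 1.50 (SE 0.09, adjusted p = 5.8e-09).

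In control cells 7 of these 10 rose and 0 fell at day 9 against day 5, with a median of 0.36, where 23.9% of all tested miRNAs rose and 35% fell. These groups lie on different slides, and 4 of 10 rose with slide as a fixed block, 4 with a floor 4 times higher and 3 with normexp background. At day 14 against day 5 the count in control cells was again 7 and 0, where 34.3% of all rose and 34.3% fell, against 4 and 1 with the software's total signal. The largest called difference was that of let-7d-5p, which was below background at day 5. miR-101a-3p, a known repressor of the Polycomb gene Ezh2, followed and rose by 1.17 (SE 0.10, adjusted p = 1.8e-07) in control cells at day 14.

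miRNAs of neuron maturation were read in the same way. At day 5 miR-129-5p, miR-132-3p and miR-138-5p were at the floor, so none of them could fall in comparisons with day 5. miR-129-5p and miR-138-5p passed the filter on dim signal through the day 14 groups alone. Of 10 tested, 7 rose and 0 fell in treated cells at day 9 against day 5 (37.6% of all rose), and 8 rose and 1 fell between day 9 and day 14 (35.6% of all rose and 30.7% fell). The 1 that fell was miR-132-3p, which neuronal activity induces, by 1.22 (SE 0.12, adjusted p = 9.7e-07, limma). miR-137-3p, known from maturing neurons, was called higher in the same interval (adjusted p = 7.7e-10), and no size is given because all day 9 arrays were at the floor. In control cells at day 14 against day 5, 10 of 10 rose and 0 fell, where 34.3% of all rose and 34.3% fell. miR-9-3p, expressed in neural progenitors and neurons, rose there by 3.67 (SE 0.13, adjusted p = 8.0e-12).

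Markers of cell types were read as sums of scaled signal, in multiples of the 75th percentile. The 4 neuronal markers were above background on all arrays, and their sum was 7.68 to 8.0 in treated and 13.5 to 15.2 in control cells at day 9, and 14.7 to 17.2 in treated and 23.6 to 27.9 in control cells at day 14. The labels call the treated cells dopaminergic, and the 1 dopaminergic marker of the list, miR-133b-3p, was above background on 0 of 15 arrays. That 1 marker alone does not characterize the cells. The 5 markers of pluripotent cells were each above background on at least 1 array of day 5, where they summed to 1.50 to 2.19, against 0.368 to 0.409 in treated and 0.257 to 0.339 in control cells at day 9.

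The summed mesenchymal markers were higher in treated than in control cells at both days, as the family was, but they rest mainly on miR-21-5p. Of 5, only miR-21-5p (all arrays) and miR-199a-3p (the 6 treated arrays) were above background, and the defining miR-143-3p, miR-145-5p and miR-214-3p were on 0. Their sum was 1.54 to 1.73 in treated and 0.718 to 0.795 in control cells at day 9, 0.989 to 1.08 in treated and 0.600 to 0.642 in control cells at day 14, and 0.483 to 0.706 at day 5. In control cells miR-21-5p fell by 0.31 (SE 0.12, limma, adjusted p = 0.039) between day 9 and day 14. Over that interval miR-29a-3p rose, miR-29c-3p differed by -0.011 and miR-29b-3p was at the floor. The 2 glial markers summed to 4.73 to 5.01 in treated and 1.73 to 2.11 in control cells at day 9, 2.25 to 2.94 in treated and 1.56 to 1.62 in control cells at day 14, and 3.03 to 3.58 at day 5. That sum is nearly all miR-219-5p, at 2.26 on the log2 scale in treated day 9 cells. miR-338-3p differed in course at day 14. It was 0.63 higher in treated than in control cells at day 9 (SE 0.10) and 0.41 lower at day 14 (SE 0.10). In control cells it rose by 0.81 between day 9 and day 14 (SE 0.10, limma, adjusted p = 6.3e-06). Markers of endothelium and blood (4) and of striated muscle (3) were above background on 0 arrays. The part of these cell types in the miR-29 values was not tested. In bulk samples like these, fewer cells of a type and less RNA per cell cannot be told apart.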

How the data were processed

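miRNAs in total RNA were measured with 15 Agilent arrays of 1 colour. The deposited scanner tables give spot signals in units of intensity (Cy3) with no normalization between arrays. Per the file headers, Feature Extraction 11.0.1.1 made them. Their other columns used here, of another kind (other), are flags for spots above background, outlier and saturated spots, per the file headers. The deposited value table is linear intensity too, and it served as an alternative, with 2 of its columns, replicates 1 and 2 of treated day 14, counted as 1 because 86.0% of their probes are equal within 0.1%. Its column medians ran from -0.0215 to 0.700, and how its spots were averaged stays unknown. limma 3.20.9 is listed, with no role given, per the submitters' processing notes.

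For each probe the mean background-subtracted signal of its non-outlier spots was scaled to the 75th percentile of 353 mouse probes that every array measured above background. Low values were raised to a floor, which is the lowest scaled signal above background (median of the arrays), before log2 was taken. The brightest probe stood for each miRNA. The 306 of 1122 miRNAs that were above background in every replicate of some group entered 1 fit of the 5 groups with limma 3.58.1 (R 4.3.3, 10 residual and 3.03 prior degrees of freedom), two-sided, with Benjamini-Hochberg adjustment over the 306 and calls below 0.05. The fit was tested on simulated data. Where a group had 0 arrays above background, folds are lower bounds against the lowest scaled signal counted as above background on its arrays, or the floor where higher.

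Day comparisons were tested and treated against control was described. Members, lists and the rule for named miRNAs (members, their other arms, list members with the largest called differences, and the 5 most alike miRNAs per member) were chosen with earlier results of these data known. Replicate numbers were not used as pairs in the main fit. Deviations of same-numbered arrays correlated between -0.57 and 0.52 (median 0.02, over 0.1 in 11 of 30 pairs). Those of arrays with different numbers correlated between -0.44 and 0.57 (median 0.01, over 0.1 in 23 of 60 pairs). Groups of 3 arrays are too small to exclude pairing. Alternatives were normexp background (offset 50, on median signals), other scalings, no filter, a floor 4 times higher, the mean of probes, slide and replicate number as blocks, fewer groups, left-out arrays, the deposited table and, added after seeing the data, the software's total signal. The lists were counted under the alternatives too, left-out arrays excepted. The number of arrays limits the precision. Figures used matplotlib 3.10.9.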

Additional observations from a re-analysis of the deposited data

Results flagged for a closer look

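The treated against control difference was smaller at day 14 than at day 9 for all 3 members. The day 14 difference minus the day 9 difference was -1.09 (SE 0.13) for miR-29a-3p, -1.85 (SE 0.17) for miR-29b-3p and -0.42 (SE 0.11) for miR-29c-3p on the log2 scale. They are listed as a difference between groups, the 2 days. All 3 passed the 0.05 threshold in the fit. They are read as a description only, since the family was chosen on the treated against control contrast. A change of that difference was called for 32.7% of all tested miRNAs, and a lower value at day 14, the direction of all 3 members, for 16%. The median change over all tested miRNAs was -0.07 on the log2 scale. For miR-29a-3p the control level rose while the treated level did not pass the test between those days. For miR-29b-3p the controls were below background at both days, so the value is the change within treated cells against controls held at the floor. With slide as a fixed block the values were -1.02, -1.68 and -0.39. Groups of 3 arrays were too small for a check of single outlying arrays.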

How the results depend on the processing

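Over the 19 alternatives of each day comparison, the fitted increase of miR-29a-3p in treated cells at day 9 over day 5 was 0.71 to 4.57 (against the floor at day 5) and that of miR-29b-3p 0.30 to 2.00, both called in all. The miR-29b-3p decrease in treated cells between day 9 and day 14 was -2.30 to -0.30, called in all. The miR-29c-3p increase at day 9 was 0.092 to 1.14 and was lost with normexp (0.29, adjusted p = 0.085). Treated against control, described only, ran at day 9 from 0.71 to 2.84 for miR-29a-3p, 0.30 to 2.74 for miR-29b-3p and 0.092 to 1.02 for miR-29c-3p, and at day 14 from 0.53 to 1.36, 0.00 to 0.68 and 0.00 to 0.58. The day 14 minus day 9 value ran from -1.61 to -0.19, -2.06 to -0.30 and -0.50 to -0.092. Normexp, whose offset of 50 is near the members' own signals, and the floor 4 times higher, which holds most member values, gave fewer calls. With normexp 1 member was called for treated day 14 against treated day 9, 1 for treated day 14 against day 5 and 0 in the 3 control comparisons. With the higher floor it was 1 for treated day 14 against day 5 and 0 in the 3 control comparisons. Either left 1 member without overlap at day 14. Median scaling called 2 for control day 14 against control day 9, and the mean of probes 1 for control day 9 against day 5. Slide as a fixed block called 1 in each control comparison with day 5. Among called results, directions turned for miR-29c-3p at treated day 14 against day 5 (-0.016, normexp), miR-29a-3p at control day 9 against day 5 (-0.048, normexp) and miR-29b-3p in both control comparisons with day 5 (0.10, slide block). Differences that were not called turned too: miR-29b-3p at treated day 14 against day 5, down to -0.31 and called with median scaling (-0.27, adjusted p = 0.046), miR-29c-3p in control cells against day 5, to -0.11 at day 9 and -0.12 at day 14 with normexp and -0.038 and -0.17 with the software's total signal, and miR-29c-3p between the control days, up to 0.044. The change of miR-29a-3p minus miR-29c-3p between treated days turned to -0.10 with the higher floor. The causes of these turns were not tested. The replicate block left every call of the members in place, for example 1.87 for miR-29b-3p at treated day 9 against day 5 (adjusted p = 6.4e-08). Leaving out single arrays gave 2 to 3 called members for treated day 14 against treated day 9 and against day 5, and the same counts as before elsewhere. Signals near background limit miR-29b-3p outside treated day 9 cells.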
